A study of Homo sapiens with 12 samples.

Results

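The 34 genes described here encode enzymes that work inside the lysosome, soluble proteins that carry lipids there, and proteins of its membrane. They were taken as a given list of symbols and matched one to one by Ensembl gene identifier to rows of the expression table, which held 22379 genes. All 34 had a mean of at least 10 in untreated cells and therefore entered the tests, which ran over 13811 genes. Fewer cells and less RNA per cell cannot be told apart in bulk RNA except through the cell count behind the spike-in. The 12 libraries were made from polyadenylated RNA of U2OS, an established line from a human osteosarcoma. The cells were pools transiently transfected with pX330, a plasmid that expresses Cas9, and carried a guide that was nontargeting (NONT) or aimed at NUP93, which encodes a scaffold protein of the nuclear pore, or at EXOSC5, which encodes a core part of the RNA exosome. Each of these 3 genotypes was sampled without drug or after 8 h in 1 µM triptolide, which blocks initiation by RNA polymerase II through the XPB helicase of TFIIH, giving 6 groups of 2 replicates. All groups had passed through puromycin selection. Sample titles call the controls untreated while the treatment label gives DMSO. No label says that the 2 replicates of a group were separate cultures, so the p-values below measure the spread between these samples, which may be technical. The knockouts were uncloned pools and may hold unedited cells, and the methods state a shorter selection and expansion for the NUP93 and EXOSC5 constructs than for the other constructs.

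Lysosomal hydrolases are made at the endoplasmic reticulum, tagged with mannose 6-phosphate in the Golgi and delivered through endosomes to a compartment that a proton pump keeps acidic. There they take apart proteins, glycans, glycosaminoglycans and lipids, and the membrane proteins protect the boundary and export the products. Many of the genes are targets of TFEB, TFE3 and MITF, transcription factors that bind a short palindromic sequence around CACGTG in lysosomal promoters. After a block of initiation no new mRNA is supplied, so that the amount left after a fixed time follows how fast each mRNA is lost.

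That promoter sequence was searched for in the 250 bases before the RefSeq start of each gene (GRCh38.p14), on both strands. A promoter was held for 26 of the 34 members, those without one being ASAH1, CTSB, HEXA, LAMP2, MANBA, NAGLU, PSAP and SGSH. CACGTG occurred in 7 of the 26 (26.9%), against 6.49% of all 27305 promoters held and 9.00% of those of tested genes. The longer TCACGTGA, which contains CACGTG, occurred in 4 of the 26 (15.4%), against 0.890% of all promoters and 1.71% of those of tested genes. These 4 were CTSA, a serine carboxypeptidase that also shields other hydrolases, GAA, the acid alpha-glucosidase that degrades glycogen, LAMP1, a heavily glycosylated membrane protein, and MCOLN1, a calcium-permeable channel. Their matches are shown on the plus strand in windows of 30 bases, with TCACGTGA in capitals, because they are the sequences through which the lysosomal set is known to be tied to TFEB:
CTSA, chr20:45891298-45891327: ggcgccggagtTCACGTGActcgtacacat
GAA, first match, chr17:80101493-80101522: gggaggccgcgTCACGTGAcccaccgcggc
GAA, second match, chr17:80101538-80101567: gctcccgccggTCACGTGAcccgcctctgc
LAMP1, chr13:113297199-113297228: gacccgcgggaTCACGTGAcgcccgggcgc
MCOLN1, first match, chr19:7522571-7522600: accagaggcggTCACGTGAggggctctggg
MCOLN1, second match, chr19:7522594-7522623: ctctgggctaccgggTCACGTGAccgaggc
The first capital lies 26 bases before the RefSeq start in CTSA, 77 and 32 bases before it in GAA, 29 in LAMP1, and 42 and 15 in MCOLN1. GENCODE 44 places the first base of CTSA at 45890144 on chromosome 20 and that of GAA at 80101533 on chromosome 17, so that the CTSA match and the second GAA match fall inside those gene models. The windows of MCOLN1 and LAMP1 end before the first annotated base. A match describes the letters and does not show binding.

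The deposited values are a signal per gene that the authors scaled to ERCC spike-in RNAs, added per counted cell. The approximate depth lay between 8.60 M and 11.96 M reads (M for mega) per library, as read from the spacing of the lowest values, and the members together held between 41044 and 66566 of those reads. An error in a cell count or a spike-in volume moves all genes of a library together. Tests were therefore read on the spike-in scale and again relative to the median gene, after centring each library on the median of its tested genes. In the members, the ratio between the 2 replicates of a group had a median of 1.46 in untreated and 1.33 in treated NONT, and between 1.06 and 1.17 in the other groups. EXOSC5 mRNA was 299 and 481 in untreated NONT and 216 and 148 in untreated EXOSC5-KO, and NUP93 mRNA was 1753 and 2489 in untreated NONT and 1395 and 1432 in untreated NUP93-KO, so each target was lower in both libraries of its own pool but was not lost. Of 6 leukocyte and macrophage markers, which would mark another source of lysosomal mRNA, 2 were listed at 0 throughout and the 6 summed to between 7.79 and 46.6 per library, whereas 5 osteoblast lineage markers summed to between 22632 and 77881 and 5 epithelial markers to between 49.8 and 225. The osteoblast sum came mostly from COL1A1 and SPARC, at 39198 and 13460 in the first untreated NONT library. COL1A2 was 20.1 there, below the epithelial CLDN4 at 62.5 and above KRT5 at 4.42.

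The median lysosomal mRNA lost less of its signal than the median gene when initiation was blocked, in all 3 genotypes. In NONT cells the median member changed by -1.14 on the log2 scale of the spike-in signal, where the median of all tested genes changed by -1.62, and 31 of the 34 members lay above that median. In NUP93-KO the median member changed by -0.11 against -0.92 for all genes, and in EXOSC5-KO by -0.52 against -1.08, with 32 of 34 members above the gene median in each. With 1 library left out at a time, the members' median ranged over -1.43 to -0.88 in NONT, -0.27 to 0.02 for NUP93-KO, where it changed sign, and -0.62 to -0.41 for EXOSC5-KO. With 1 treated and 1 untreated library taken at a time, in all 4 pairings, the members' median exceeded that of all genes by 0.43 to 0.63 in NONT cells, 0.65 to 0.95 in the NUP93-KO pool and 0.48 to 0.62 in EXOSC5-KO.

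A sum over the members weighs most on the abundant ones, with untreated means of 11841 for PSAP, 10014 for CD63 and 7119 for LAMP1. The lowest, CTSB, had 42.3. Summed over the 34 members, the signal in NONT was 47984 and 72111 without drug and 31957 and 23467 with triptolide. The same sum was 58152 and 71703 without drug and 57097 and 66511 with it in NUP93-KO, where the groups overlapped. EXOSC5-KO went from 80026 and 70769.9 to 53245 and 53524. As a share of the sum over all genes, which does not depend on the spike-in, the members were higher in every treated library than in either untreated library of the same genotype. They made up 0.424 and 0.438% of the gene sum in untreated and 0.538 and 0.479% in treated NONT, 0.484 and 0.541% and then 0.694 and 0.757% in the NUP93-KO pool, and 0.556 and 0.528% and then 0.665 and 0.667% in EXOSC5-KO. With 2 libraries a group, an exact permutation test of such a share cannot reach a two-sided p below 0.333.

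**Figure D1:**
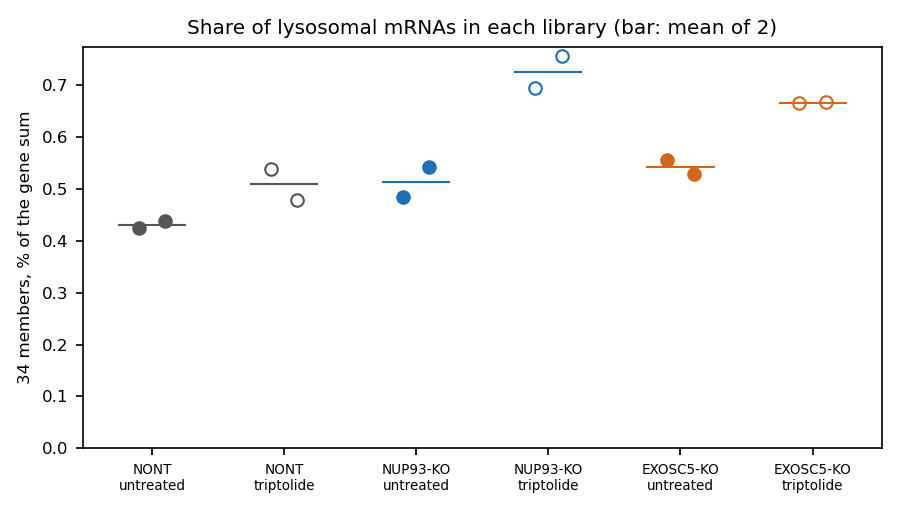
The y axis is the summed signal of the 34 lysosomal members as a percentage of the sum over all genes, for each of the 12 libraries, with bars at the mean of 2. Treated libraries (open) sit above the untreated libraries (filled) of their own genotype, from 0.424 and 0.438% in untreated NONT up to 0.694 and 0.757% in treated NUP93-KO.

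By the test on the spike-in scale (limma on log2(signal + 1), Benjamini-Hochberg adjusted p under 0.05), triptolide lowered 33 of 34 members in NONT, where 90.0% of all tested genes were called lower. The exception was CTSH. In EXOSC5-KO 15 members (44.1%) were called lower against a background of 64.3%, and in NUP93-KO 2 were, NPC1 and GLA, against 55.1%. No member was called higher in any genotype, nor had any an unadjusted p under 0.05 in that direction, where 0.0507%, 0.138% and 0.0796% of all genes were called higher in NONT, NUP93-KO and EXOSC5-KO. Scaling by the mitochondrially encoded mRNAs, which another polymerase makes, gave 29, 13 and 26 members lower in the same order. The share of all genes called lower under that scaling is not given, so these counts have no background. In NUP93-KO the sum of those mRNAs per spike-in was 74671 and 70097 without and 91206 and 87262 with triptolide. Treated and untreated sums overlapped in NONT and EXOSC5-KO. On the spike-in scale the EXOSC5-KO count depended on the libraries fitted, and so did the background. It was 3 and 9 members without the first and second untreated library of that pool, where 50.4% and 56.4% of all genes were lower, and 6 and 5 without the first and second treated library, where 52.7% and 53.2% were. Without either untreated NONT library 24 members (70.6%) were lower, near the 71.0% and 71.4% of all genes. With only the EXOSC5-KO libraries fitted 28 (82.4%) were, above the 74.4% of all genes, so the members' share was not below that of all genes in every fit.

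**Figure D2:**
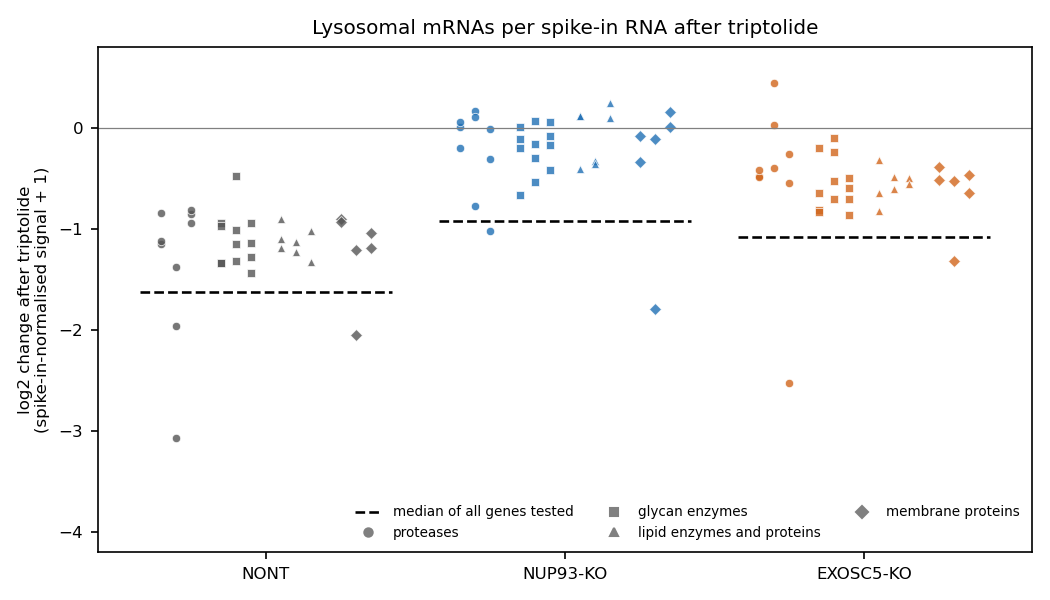
Each symbol is 1 of the 34 members, placed by its log2 change after triptolide in spike-in-normalised signal, with the symbol shape giving the role and the dashed line the median of all genes tested. Most members lie above the dashed line in each genotype, and NPC1 lies below it in all of them.

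Relative to the median gene, 26 members were called higher and 2 lower after triptolide in NONT, where 28.7% of all genes were called higher and 29.0% lower. In NUP93-KO 28 were higher and 1 lower, against 28.3% and 28.8%, and in EXOSC5-KO 27 were higher and 0 lower, against 27.9% and 27.9%. No member had an unadjusted p under 0.05 for a lower value in EXOSC5-KO either. The median member stood at 0.53, 0.83 and 0.60 in log2 in the 3 genotypes, and the median of all genes, after the libraries had been centred, at 0.05, 0.02 and 0.04. With no filter on low values, the gene median lay nearer to the members. In that fit 13 members in NONT cells, 24 in the NUP93-KO pool and 16 in EXOSC5-KO were called higher. The share of all genes called higher there is not given, and why the counts fell was not tested.

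**Figure D3:**
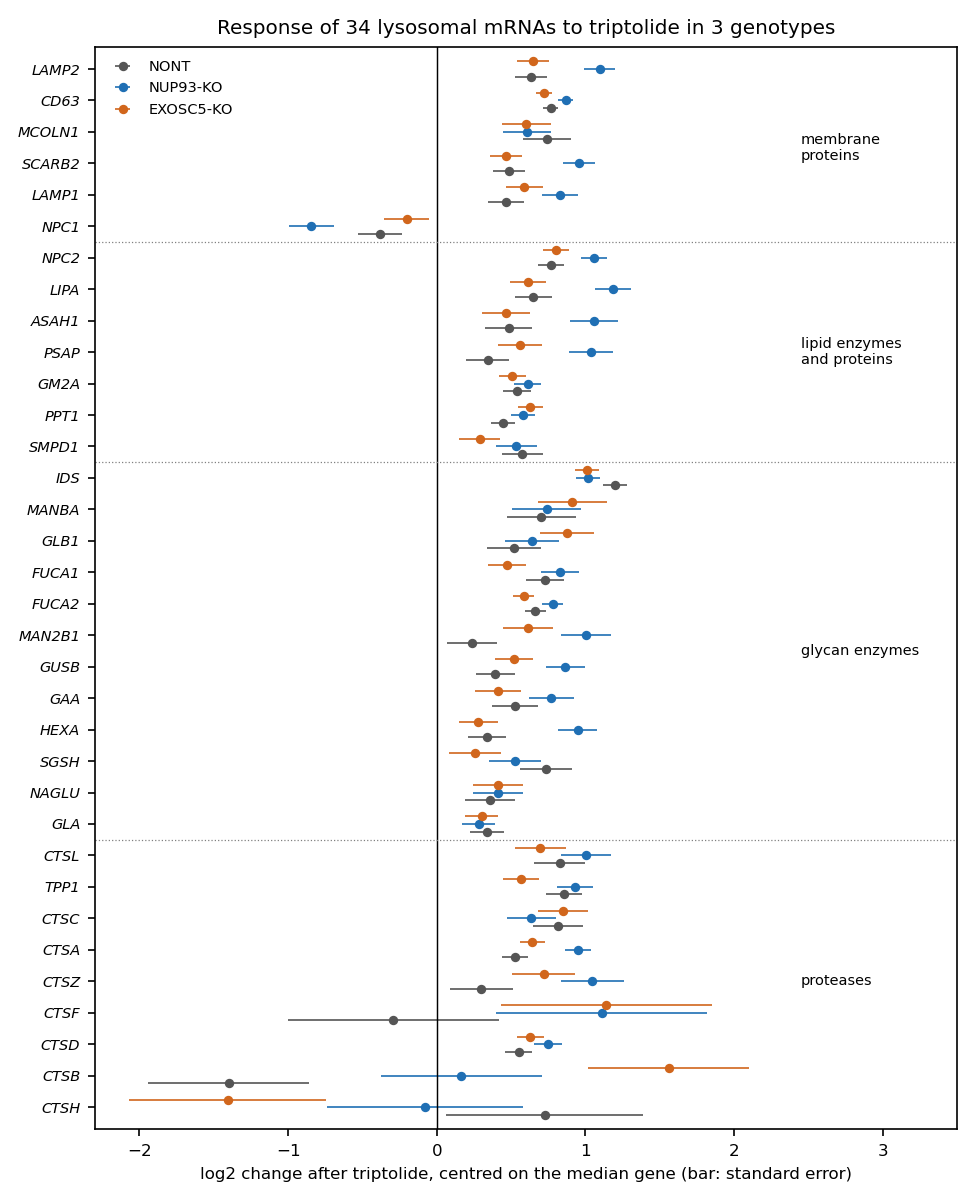
The x axis is the log2 change after triptolide relative to the median gene, with its standard error, for each of the 34 members grouped by role (y axis) in NONT, NUP93-KO and EXOSC5-KO. IDS stands at 1.20, 1.02 and 1.01 and NPC1 at -0.38, -0.84 and -0.20, while CTSB, CTSF and CTSH have the longest error bars.

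Among the 9 proteases, 5, 6 and 7 were called higher relative to the median gene in NONT, NUP93-KO and EXOSC5-KO. CTSD, an aspartic endopeptidase and one of the most abundant lysosomal proteases (chr11:1752752-1764573, 9 exons), had a signal of 2303 and 3509 in untreated and 1574 and 1085 in treated NONT. Its values were 2876 and 3486 and then 2628 and 2907 in the NUP93-KO pool, and 4014 and 3232 and then 2604 and 2547 in EXOSC5-KO. Treated libraries were below both untreated ones in NONT and EXOSC5-KO but overlapped them in NUP93-KO. CTSD rose relative to the median gene by 0.55 ± 0.09 (SE) in NONT, adjusted p = 0.000475 by limma, by 0.75 ± 0.09 in the NUP93-KO pool and by 0.63 ± 0.09 in EXOSC5-KO, with adjusted p of 5.81e-05 and 0.000207.

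CTSZ, a cysteine carboxypeptidase (chr20:58985686-59008238), went from 2211 and 2899 to 1466 and 652 in NONT cells, from 2558 and 3404 to 2945 and 3414 in the NUP93-KO pool and from 3391 and 3044 to 2412 and 2480.2 in the EXOSC5-KO pool. The treated NONT replicates differed by 2.25 times, the second being the lower, and the change there was 0.30 ± 0.21 relative to the median gene (adjusted p = 0.253). It was 0.74 without the second treated NONT library and -0.13 without the first. In NUP93-KO CTSZ rose by 1.05 ± 0.21 (adjusted p = 0.0016). TPP1, a tripeptidyl peptidase, was 1159 and 1911 in untreated and 1018 and 700.1 in treated NONT, and it kept 0.56 of its untreated mean there, 1.00 in the NUP93-KO pool and 0.685 in EXOSC5-KO. That corresponds to a rise of 0.85 ± 0.12 relative to the median gene in NONT (adjusted p = 0.000134). In the knockouts TPP1 was 1703 and 1828 before and 1515 and 2025 after the drug (NUP93-KO) and 2233 and 2268 before and 1546 and 1538 after it (EXOSC5-KO), which overlapped only in NUP93-KO. CTSA, at 1835 and 2613 and then 1113 and 881 in NONT, rose by 0.53, 0.95 and 0.64 in the 3 genotypes, with adjusted p of at most 0.000352. Its values were 2288 and 2887 before and 2347 and 2847 after the drug in NUP93-KO, where they overlapped, and 3395 and 2889 before and 2231 and 2287 after it in EXOSC5-KO. CTSC, which activates serine proteases, and CTSL, a cysteine endopeptidase, passed in all 3 genotypes with rises between 0.64 and 1.00.

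The other proteases, CTSB, CTSF and CTSH, are cysteine cathepsins and stood at the bottom of the range in level. CTSB was 32.6 and 44.7 in untreated NONT and 7.19 and 1.66 with triptolide, 65.2 and 46.7 and then 21.8 and 46.1 in the NUP93-KO pool, and 35.3 and 29.0 and then 62.2 and 31.0 in EXOSC5-KO. Both treated libraries were therefore lower in NONT and in NUP93-KO, by little for the second of the latter, and the groups overlapped in EXOSC5-KO. CTSF was 66.7 and 136 and then 72.4 and 7.30 in NONT, a 9.92-fold gap between the treated replicates, and between 85.6 and 218 in the knockouts. CTSH was 41.1 and 42.5 and then 19.4 and 23.2 in NONT cells, 75.5 and 71.7 and then 13.5 and 92.2 in the NUP93-KO pool, and 76.0 and 65.5 and then 11.6 and 11.4 in EXOSC5-KO. The treated NUP93-KO replicates of CTSH differed by 6.85 times, so that no direction can be read there. CTSB was called lower than the median gene in NONT (-1.40 ± 0.54, adjusted p = 0.0467) and higher in EXOSC5-KO (1.56 ± 0.54, adjusted p = 0.0305), and neither CTSF nor CTSH was called in any genotype. The CTSB calls in NONT and EXOSC5-KO held under 11 and 17 of the 21 alternatives in which the gene was tested. Without the second treated NONT library the CTSB change in NONT was -0.73 and no longer passed. The table also held 2795 identifiers that no annotation used here names, and a gene with a second copy in the index could be split between rows. Whether that lowered these 3 was not tested.

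Of the 12 glycan and glycosaminoglycan enzymes, 10 rose relative to the median gene in NONT cells, 10 in the NUP93-KO pool and 9 in EXOSC5-KO, and none was lower. IDS, the iduronate sulfatase that starts the degradation of dermatan and heparan sulfate (chrX:149476988-149521096), kept most of its signal. It was 1759.5 and 2452 in untreated and 1569.9 and 1425 in treated NONT, 2294 and 2439 and then 2572 and 2405 in the NUP93-KO pool, and 2539.7 and 2623 and then 2469 and 2341 in EXOSC5-KO. The treated values overlapped the untreated ones in NUP93-KO and lay below both in NONT and EXOSC5-KO. IDS rose relative to the median gene by 1.20 ± 0.08 in NONT cells, 1.02 ± 0.08 in the NUP93-KO pool and 1.01 ± 0.08 in EXOSC5-KO, with adjusted p of 8.4e-07, 2.84e-06 and 3.35e-06. IDS has a partial copy nearby on the X chromosome, the pseudogene IDSP1, and how reads were shared between them is not given in the sources used here. The 3 calls held under all 22 alternatives of the processing.

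FUCA2, an alpha-fucosidase, had a signal of 1159 and 1643 in untreated and 769.9 and 611 in treated NONT, 1333 and 1542 before and 1277 and 1284 after the drug in the NUP93-KO pool, and 1831 and 1597 before and 1129 and 1241 after it in EXOSC5-KO, so that treated libraries were the lower ones in all 3 genotypes. It rose by 0.66 ± 0.07 relative to the median gene in NONT (adjusted p = 1.92e-05). HEXA, the alpha subunit of the hexosaminidase that degrades GM2 ganglioside, was 624 and 939.6 in untreated and 366 and 252 in treated NONT, where it rose by 0.34 ± 0.13 relative to the median gene (adjusted p = 0.0458). In NUP93-KO it was 753 and 1097 without and 854 and 972 with the drug, a rise of 0.95 ± 0.13 (adjusted p = 0.000115). In EXOSC5-KO it fell from 1679 and 1448 to 859.6 and 887, and its change of 0.28 ± 0.13 relative to the median gene was not called (adjusted p = 0.0924). GUSB, beta-glucuronidase, rose by 0.39, 0.87 and 0.52 in the 3 genotypes. MAN2B1, an alpha-mannosidase, rose by 1.01 ± 0.17 in the NUP93-KO pool and by 0.62 ± 0.17 in EXOSC5-KO (adjusted p = 0.000475 and 0.0101) and changed by 0.24 ± 0.17 in NONT without passing (adjusted p = 0.259).

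FUCA1, a second alpha-fucosidase, GAA, GLB1, the beta-galactosidase of GM1 ganglioside and keratan sulfate, and MANBA, the beta-mannosidase, passed in all 3 genotypes, with rises from 0.41 for GAA in EXOSC5-KO to 0.91 for MANBA in the same pool. SGSH, which desulfates heparan sulfate, passed in NONT (0.73 ± 0.17) and NUP93-KO (0.53 ± 0.17) but not in EXOSC5-KO (0.26 ± 0.17, adjusted p = 0.239). At the low end of the class, GLA, the alpha-galactosidase of globotriaosylceramide, rose by 0.34 in NONT and 0.30 in EXOSC5-KO and had 0.28 in NUP93-KO without passing (adjusted p = 0.0537). NAGLU, the N-acetylglucosaminidase of heparan sulfate, did not pass in any genotype, at 0.36, 0.41 and 0.41 with standard errors of 0.17.

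Of the 7 lipid enzymes and soluble lipid-handling proteins, 6 rose in NONT cells, 7 in the NUP93-KO pool and 6 in EXOSC5-KO relative to the median gene. PSAP, the precursor of the saposins that present sphingolipids to their hydrolases (chr10:71816298-71851251, 14 exons), had the highest untreated mean of the 34. It went from 8119.7 and 12667 to 4848 and 3359 in NONT, went from 9206 and 13482 to 10265 and 13808 in the NUP93-KO pool and from 15326 and 12246 to 9278 and 9370.2 in the EXOSC5-KO pool. In NUP93-KO both treated libraries lay above the first untreated one. Against the median gene PSAP changed by 0.34 ± 0.15 in NONT (adjusted p = 0.067, not called), 1.04 ± 0.15 in NUP93-KO (adjusted p = 0.000134) and 0.56 ± 0.15 in EXOSC5-KO (adjusted p = 0.00753). Without the second treated NONT library the NONT value was 0.47 and passed.

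PPT1, a thioesterase that removes palmitate from proteins, went from 3224 and 5190.3 to 1830.0 and 1670.5 in NONT and rose there by 0.45 ± 0.08 relative to the median gene (adjusted p = 0.000944), with 0.58 in the NUP93-KO pool and 0.63 in EXOSC5-KO. Its signal was 3899 and 3835 before and 2975 and 3041 after the drug in the NUP93-KO pool and 4035 and 3447 before and 2737 and 2591 after it in EXOSC5-KO, again with the treated libraries lower. LIPA, the acid lipase of cholesteryl esters and triglycerides, was 477 and 527 in untreated and 522 and 673 in treated NUP93-KO, where 1 treated library lay above both untreated ones and the other between them. It rose by 1.18 ± 0.12 there (adjusted p = 1.58e-05), the largest relative rise of any member in NUP93-KO. In NONT LIPA was 466 and 749 and then 307 and 276, a rise of 0.65 ± 0.12 relative to the median gene. NPC2, which hands cholesterol to NPC1 in the membrane, rose by 0.77, 1.06 and 0.80 in the 3 genotypes, with standard errors of 0.09. GM2A, the activator protein of HEXA, rose by 0.54, 0.61 and 0.51. ASAH1, acid ceramidase, rose by 0.48, 1.06 and 0.47. SMPD1, acid sphingomyelinase, rose by 0.58 in NONT and 0.54 in NUP93-KO, and its 0.29 in EXOSC5-KO was not called (adjusted p = 0.1).

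Of the 6 membrane proteins, 5 rose relative to the median gene in each genotype and NPC1 did not. CD63, a tetraspanin of late endosomes and lysosomes (chr12:55725323-55729707, 8 exons), was 7385 and 10585 in untreated and 5277 and 4222 in treated NONT. Its values were 9121 and 10249 and then 8589 and 9799 in NUP93-KO, where they overlapped, and 11359 and 11383 and then 8679 and 8653 in EXOSC5-KO. CD63 rose by 0.77 ± 0.05, 0.87 ± 0.05 and 0.72 ± 0.05 relative to the median gene, with adjusted p of 7.82e-07, 4.55e-07 and 1.54e-06. LAMP1 (chr13:113297239-113323672) fell from 4888 and 7479.9 to 3384 and 2026 in NONT, went from 6268 and 7958 to 6074 and 7019 in the NUP93-KO pool and from 8509 and 7609 to 5466 and 5727 in the EXOSC5-KO pool. LAMP1 rose relative to the median gene by 0.46 ± 0.12 in NONT (adjusted p = 0.00755) and by 0.83 ± 0.12 in NUP93-KO (adjusted p = 0.000182). LAMP2, its partner glycoprotein and the receptor of chaperone-mediated autophagy, rose by 0.64, 1.10 and 0.65, SCARB2, the receptor that carries glucocerebrosidase, by 0.49, 0.96 and 0.47, and MCOLN1 by 0.74, 0.61 and 0.60.

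NPC1, the transporter that moves cholesterol out of the lysosome (chr18:23506184-23586506, 25 exons), did not share the relative rise. NPC1 dropped from 790.2 and 1154 to 299 and 176 in NONT cells, from 952 and 1039 to 273 and 302 in the NUP93-KO pool and from 1352 and 1120.0 to 544 and 447 in the EXOSC5-KO pool, passed on the spike-in scale in each, and no treated library reached an untreated one. It kept 0.244, 0.289 and 0.401 of its untreated mean, where NPC2, its soluble partner, kept 0.528, 1.07 and 0.803. NPC1 fell relative to the median gene in NUP93-KO (-0.84 ± 0.15, adjusted p = 0.000665), a call that held under all 22 alternatives. In NONT its change was -0.38 ± 0.15 with an adjusted p of 0.0487, just inside the threshold, and it held under 7 of the 22. Leaving out the second treated NONT library gave -0.14 there and leaving out the first -0.61. In EXOSC5-KO the change was -0.20 ± 0.15 (adjusted p = 0.276) and was not called.

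**Figure D4:**
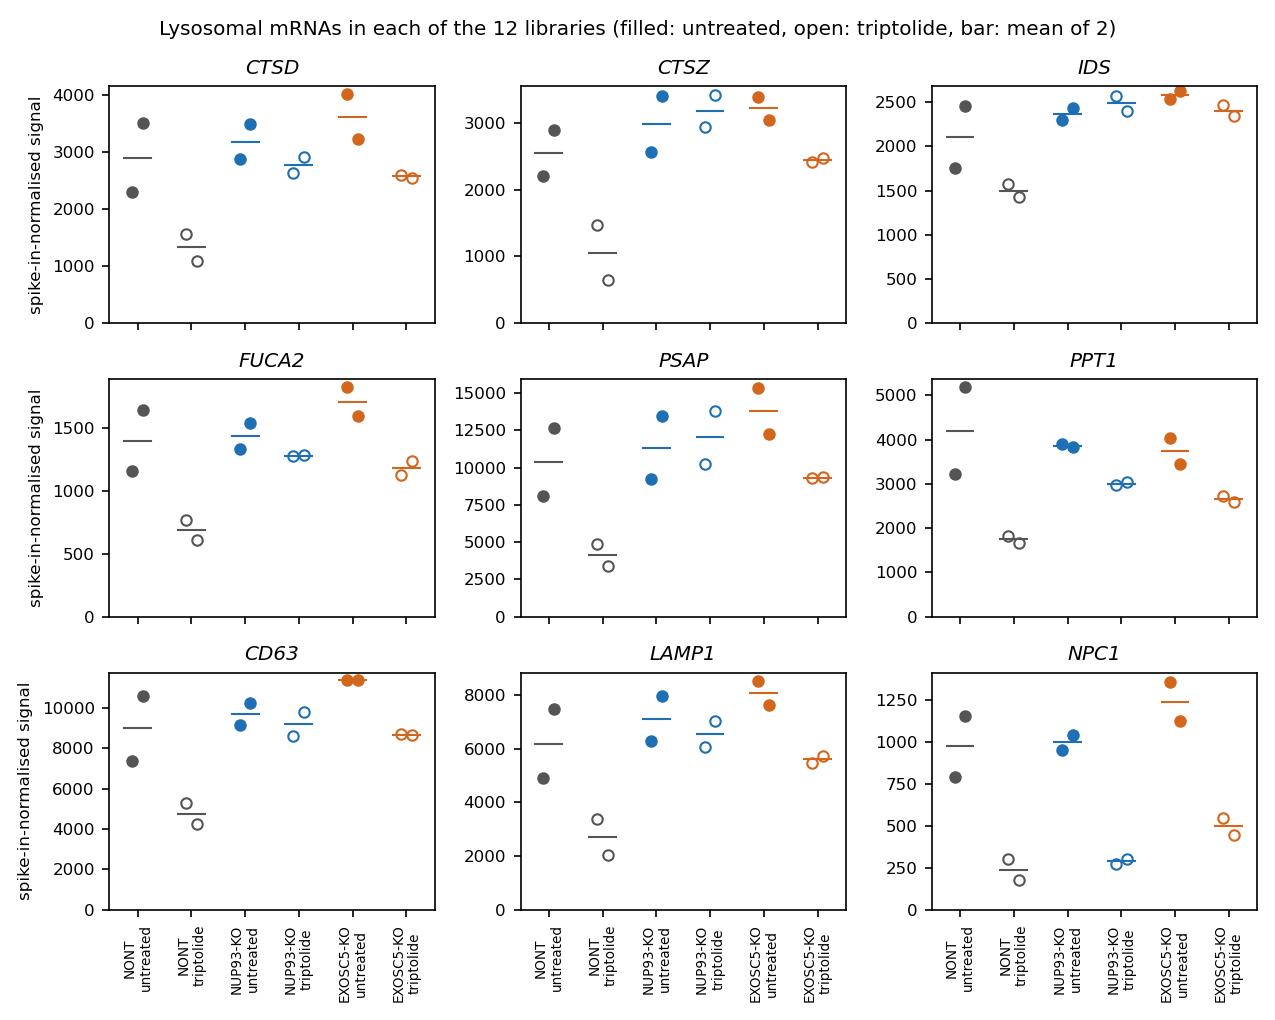
Spike-in-normalised signal (y axis) of 9 members in each of the 12 libraries, with 2 replicates and their mean per group (x axis). In NONT the treated libraries (open) lie below the untreated ones (filled) for all 9. In NUP93-KO the 2 overlap for CTSD, CTSZ, IDS, PSAP, CD63 and LAMP1 and stay apart for FUCA2, PPT1 and NPC1. Both treated libraries lie below both untreated ones for 94.8% of all tested genes in NONT and 79.1% in NUP93-KO. Among the members this holds for 33 in NONT and 12 in NUP93-KO. Both lie above for 0.21% and 1.81% of genes, and for 0 and 1 members, in the same order.

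The question of whether either knockout changed the response was put to the difference between responses. On the spike-in scale the difference of NUP93-KO from NONT had a median of 0.88 over the members and 0.74 over all genes, and that of EXOSC5-KO had 0.56 and 0.57. With 1 library left out the members' medians ranged over 0.63 to 1.19 and 0.27 to 0.87. No member passed the limma test in either comparison, where 0.760% and 0.319% of all genes were called higher. At an unadjusted p under 0.05, 25 members (73.5%) were higher in NUP93-KO, beside 41.3% of all genes, and 7 (20.6%) in EXOSC5-KO, beside 23.1%. None was lower. The counts depended on the NONT libraries, which both comparisons share. The untreated ones differed by 0.514 in the log2 median of all genes. Without the first of them 29 members (85.3%) passed in NUP93-KO, where 50.7% of all genes did, and 22 (64.7%) in EXOSC5-KO, where 38.0% did. Without the second, no member and no other gene was called higher in either comparison. Without the first treated NONT library 20 and 3 members passed (58.8% and 8.82%), beside 18.0% and 2.93% of all genes.

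Relative to the median gene no member passed for a different response either. The background there was 0.0217% of genes called higher in the NUP93-KO pool and 0.0869% in EXOSC5-KO. The median difference was 0.16 in NUP93-KO, with 26 of 34 members above the gene median of 0.01, and -0.00178 in EXOSC5-KO, with 16 of 34 above 0.02. PSAP, MAN2B1 and HEXA had differences of 0.70 ± 0.21, 0.77 ± 0.24 and 0.61 ± 0.18 in NUP93-KO, with adjusted p of 0.367, 0.37 and 0.37, and NPC1 had -0.46 ± 0.21 (adjusted p = 0.541). These 3 higher members were picked after their values were seen. CTSB and CTSF, at 1.56 ± 0.77 and 1.40 ± 1.00, had the largest differences in NUP93-KO and also in EXOSC5-KO, at 2.96 ± 0.77 and 1.43 ± 1.00. CTSH and SGSH had the lowest in EXOSC5-KO, at -2.13 ± 0.94 and -0.48 ± 0.25, and CTSH had -0.81 ± 0.94 in NUP93-KO. The values of CTSF were -0.03 in NUP93-KO and -0.00088 in EXOSC5-KO at their lowest and 2.82 and 2.85 at their highest when 1 library was left out, and both lowest came without the second treated NONT library.

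Without drug few lysosomal mRNAs passed a test for a difference between a knockout and NONT. On the spike-in scale no member was called in either knockout, where 0.0145% of genes were called higher in the NUP93-KO pool and 0.485% in EXOSC5-KO. Relative to the median gene 2 members were higher in NUP93-KO, against 0.507% of all genes higher and 1.01% called in either direction, and 5 were higher in EXOSC5-KO, against 2.12% higher and 3.88% lower. None was called lower. Fewer members passed in NUP93-KO whichever of the 12 libraries was left out, and the EXOSC5-KO count also changed with the library left out. The share of all genes called in those fits is not given, so such counts cannot be set beside a background. The median member stood at 0.26 in the NUP93-KO pool and 0.26 in EXOSC5-KO, and 30 and 31 of the 34 lay above the gene median. Both comparisons use the same NONT libraries.

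HEXA gave the clearest difference, at 624 and 939.6 in untreated NONT and 1679 and 1448 in untreated EXOSC5-KO, with no overlap. It was 0.92 ± 0.13 higher relative to the median gene (adjusted p = 0.00283) and passed under all 22 alternatives. FUCA1 was 214 and 318 in NONT cells, 393 and 428 in the NUP93-KO pool and 458 and 385 in EXOSC5-KO, above both NONT libraries in each knockout. Its differences were 0.72 ± 0.13 and 0.58 ± 0.13, with adjusted p of 0.0304 and 0.0243, and they passed under 13 and 17 of the 22. GM2A was higher in NUP93-KO, at 863 and 961 against 569.8 and 821 (0.48 ± 0.09, adjusted p = 0.0421), and passed under 6. In EXOSC5-KO CTSA was 0.41 ± 0.09 higher, TPP1 0.49 ± 0.12 and CD63 0.26 ± 0.05, with adjusted p of 0.0194, 0.0387 and 0.0155, passing under 17, 12 and 17 of the 22. LIPA and GUSB were lowest in NUP93-KO at -0.17 ± 0.12 and -0.19 ± 0.13, and PPT1 and CTSC in EXOSC5-KO at -0.24 ± 0.08 and -0.24 ± 0.17 apart from CTSB, none of them called. CTSF and CTSH had higher values in NUP93-KO, at 0.98 ± 0.71 and 0.87 ± 0.66, and CTSH in EXOSC5-KO, at 0.64 ± 0.66, and did not pass. GUSB was 542 and 835 in untreated NONT and 488 and 647 in untreated NUP93-KO, and CTSC was 965 and 1714 in untreated NONT and 1048 and 1307 in untreated EXOSC5-KO.

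**Figure D5:**
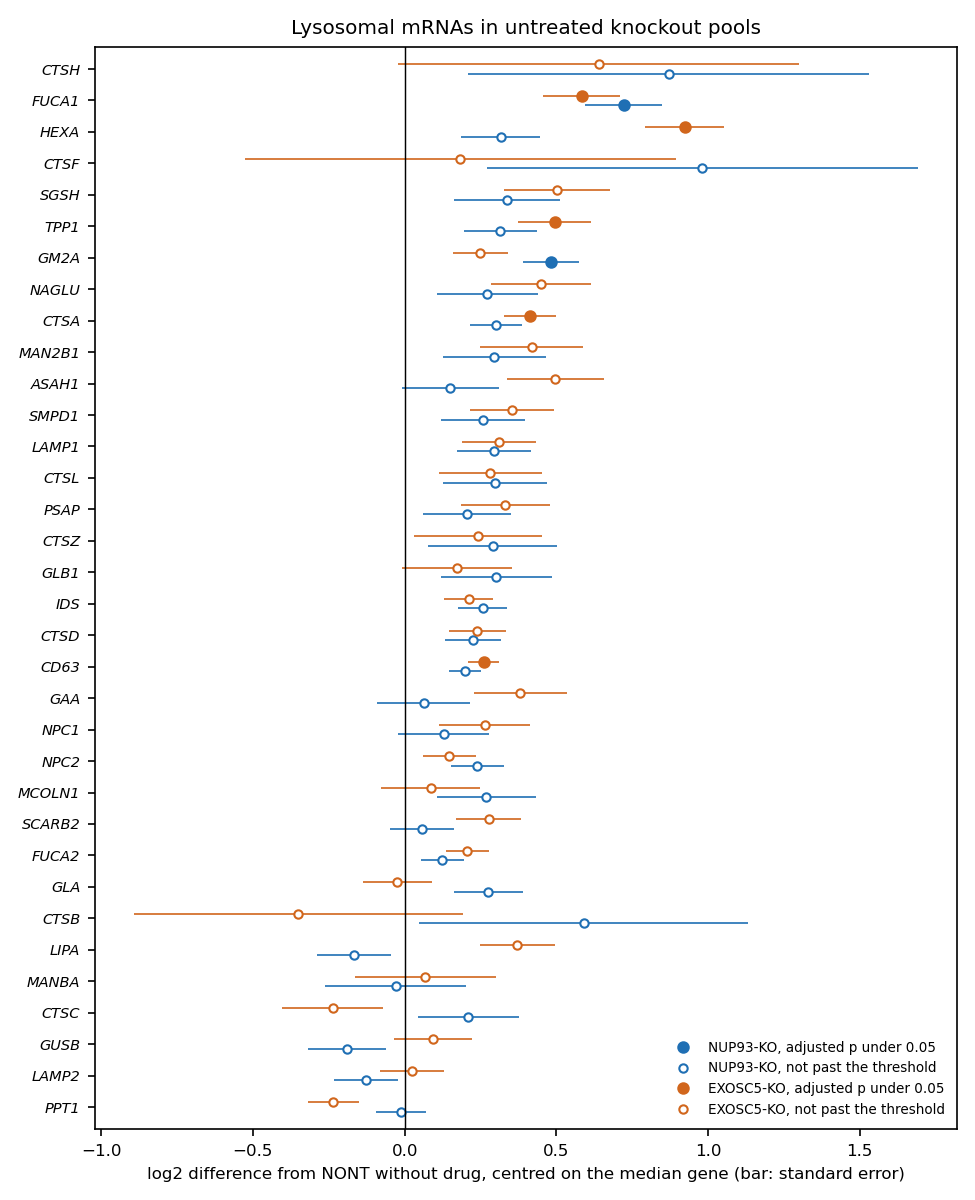
Log2 difference from NONT without drug relative to the median gene, with its standard error (x axis), for each of the 34 members (y axis) in NUP93-KO and EXOSC5-KO, with filled points past an adjusted p of 0.05. The 2 filled points of NUP93-KO are FUCA1 and GM2A and the 5 of EXOSC5-KO are HEXA, FUCA1, TPP1, CTSA and CD63.

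The rest of the lysosome was read from lists of other genes. Of 44 further lysosomal enzymes and membrane proteins 40 were tested, and 25, 23 and 24 were higher and 0, 1 and 1 lower relative to the median gene after triptolide in NONT, NUP93-KO and EXOSC5-KO. Their medians were 0.55, 0.65 and 0.59. LAPTM4B, a membrane protein of late endosomes, had the largest rise in NONT (1.02 ± 0.06), and CTSV the lowest value (-1.41 ± 1.23, not called). CTSV was near the floor, at 17.3 and 8.42 in untreated and 0 and 1.41 in treated NONT. Of 18 proton pump genes 14, 13 and 13 were higher, with medians of 0.64, 0.55 and 0.62, and ATP6V1B2, a subunit of its catalytic ring, was lower in each (-0.77 ± 0.14 in NONT). ATP6V0A1 had the highest value in NONT cells, 1.03 ± 0.45, and was not called (adjusted p = 0.0725). Its signal was also near the floor, at 11.6 and 11.2 in untreated and 8.22 and 5.86 in treated NONT. Of 6 genes that tag hydrolases with mannose 6-phosphate or sort them, 3, 5 and 5 were higher, among them IGF2R, a mannose 6-phosphate receptor, at 0.68 ± 0.09 in NONT, while NAGPA had 0.17 ± 0.14 and was not called.

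The mRNAs of the transcription factors lay below the median gene after triptolide in NONT. TFEB was 108 and 186 in untreated and 2.72 and 3.08 in treated NONT, 148 and 211 and then 14.4 and 12.2 in the NUP93-KO pool, and 168 and 132 and then 10.8 and 6.88 in EXOSC5-KO. Against the median gene its change was -3.53 ± 0.35, -2.69 ± 0.35 and -2.84 ± 0.35 in log2, with adjusted p of 1.03e-05, 7.43e-05 and 5.51e-05. TFE3, the most abundant of them at 1185 and 1780.3 in untreated NONT, and MITF were also lower in NONT (-0.25 ± 0.08 and -0.55 ± 0.19), but neither was called in a knockout. TFEC, at 13.5 and 157 in untreated NONT, was too variable for a call (-1.53 ± 0.93). In the machinery that docks mTORC1, the kinase that holds TFEB in the cytoplasm, the 15 genes were spread around the median gene, with 6 higher and 6 lower in NONT cells, from FLCN at -2.03 ± 0.25 to LAMTOR5 at 0.89 ± 0.09. The lists overlap no member, and their counts are a description.

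Level, length and response varied widely among the members. Per kilobase of the canonical transcript the untreated mean was highest for CD63 (9789), PSAP (4309), NPC2 (2832) and LAMP1 (2636), and lowest for CTSB (11.3) and CTSH (28.9). Across the 34 members, Spearman's rho of the relative response in NONT was 0.14 with that level, 0.050 with the length of the 3′ UTR and -0.18 with transcript length. With the share of G and C bases in the transcript it was -0.27. All points come from the same libraries, and no p is given. Compared with the 12989 tested genes with an annotated canonical coding transcript, members had shorter transcripts (median 2486 against 3450 bases) and shorter 3′ UTRs (754 against 1370 bases), at a similar coding length (1418 against 1425 bases). The destabilising pentamer ATTTA occurred a median of 1 time in a member's 3′ UTR and 2 times in all genes, whose 3′ UTRs were longer. Corrected for that length, the median was 1.32 per kilobase for members and 1.78 for all genes. The members' median lay between the quartiles of all genes, 0.160 and 3.22. The nonamer TTATTTATT occurred in 2 of the 34 (5.88%), CTSH and MCOLN1, against 9.82% of genes, without a correction for length.

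IDS, LAMP2 and HEXA carried the longest 3′ UTRs of the members, at 5758, 5175 and 3153 bases with 16, 18 and 4 ATTTA, and their relative responses in NONT were 1.20, 0.64 and 0.34, above, near and below the members' median of 0.53. The 6 members with TCACGTG in the promoter window had a median relative response of 0.53 in NONT cells, 0.80 in the NUP93-KO pool and 0.62 in EXOSC5-KO, and the 20 without it 0.61, 0.85 and 0.60, so the pair of groups overlapped in each genotype. Of the 4 members whose promoter sequences are printed above, CTSA rose by 0.53, GAA by 0.53, LAMP1 by 0.46 and MCOLN1 by 0.74 in NONT.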

How the data were processed

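The 34 members and the lists of other lysosomal genes were chosen with earlier results of these data known. The authors quantified the reads with kallisto 0.46.1 (GRCh38), combined transcripts into genes with tximport and, for protein-coding genes, divided the estimated counts by DESeq2 size factors taken from 92 ERCC spike-in RNAs. This signal, 1 value per gene and library, is what was deposited. Because size factors had been applied and the values were no longer whole counts, no count model was used. Identifiers were matched to names through GENCODE 44 (19584 of 22379 gene identifiers, the 2795 unmatched ones holding 2.21% of the summed values).

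From the deposited signal, log2(signal + 1) was fitted with limma 3.58.1 (R 4.3.3, empirical Bayes with a mean trend) over the 12 libraries with 6 group means and 7 contrasts. The fit held 13811 genes with an untreated mean of at least 10, and p-values were adjusted by the Benjamini-Hochberg method over all of them, with a threshold of 0.05. The script was tested on simulated data. A second fit centred each library on the median deviation of its tested genes (relative to the median gene). A fold on these scales understates the change of low genes. Summaries and figures used Python 3.11.15, NumPy 2.4.6, pandas 2.3.3 and matplotlib 3.10.9. Depth was about 8.60 M to 11.96 M reads (M for mega) per library.

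The members described in most detail were the 2 with the highest untreated mean in each role, the 2 highest and 2 lowest changes in each contrast, and all past the threshold without drug or in a difference in response. Outside the set, these were the targeted genes, the TFEB family and the highest and lowest gene of each other list in NONT. Values per library were given for those the results turn on, and fewer values for the other members. The 22 alternatives were other pseudocounts, filters and scalings, a fit without the trend, with a replicate block or on the compared groups alone, and each library left out.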

Additional observations from a re-analysis of the deposited data

Results flagged for a closer look

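For CTSB and CTSH, the change after triptolide relative to the median gene had opposite signs in NONT and EXOSC5-KO for every pairing of a treated with an untreated library. CTSB was at -1.40 in NONT and 1.56 in EXOSC5-KO. The 2 responses differed by 2.96 ± 0.77 (SE), for which limma gave an adjusted p of 0.261 over all genes. CTSH was at 0.73 in NONT and -1.41 in EXOSC5-KO, a difference of -2.13 ± 0.94 with an adjusted p of 0.518. Neither difference passed the test. Both genes were low, with a signal of at most 65.2 for CTSB and 92.2 for CTSH in any library, and the replicates of a group differed by up to 4.35 times for CTSB and 6.85 times for CTSH.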

How the results depend on the processing

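Of 308 counts on the spike-in scale under the alternatives, 272 stayed within 1.5 times the reported value, as did 263 of 308 relative to the median gene. The members' median on the spike-in scale stayed within the spread between replicates in 129 of 154 values and moved in 25, and its distance from the median gene stayed in 143 of 154 and moved in 11. Of 1249 values of single members 1136 kept their direction and side of the threshold, 88 lost the call, 18 gained one and 7 changed sign. For counts that changed, the cause was not tested. Under other scalings, filters or pseudocounts, without the trend or with a replicate block, the share of all genes called is not given. Nor is it given for any refit relative to the median gene, or for the comparisons without drug in any refit. Those member counts therefore cannot be set beside a background.

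Scaling each library to the same sum over genes in place of the spike-in gave 10 members higher and 2 lower after triptolide in NONT, 21 and 1 (NUP93-KO), 10 and 2 (EXOSC5-KO), and 3 (NUP93-KO) and 5 (EXOSC5-KO) higher without drug. Median-of-ratios scaling gave 25 higher and 2 lower, 28 and 1, and 24 and 0, with 2 and 5 higher without drug. These scalings remove the shared fall by their construction. The mitochondrial sum gave 13 lower in NUP93-KO, 26 in EXOSC5-KO and 1 lower in EXOSC5-KO without drug. Under each of these 3 scalings, a minimum of 50, or a pseudocount of 0.5 or 5, 1 member was lower relative to the median gene in NONT.

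Without the trend, 7 members were lower in EXOSC5-KO on the spike-in scale, 0 lower in NONT relative to the median gene, and 0 (NUP93-KO) and 2 (EXOSC5-KO) higher without drug. With only the compared groups fitted, the counts lower on the spike-in scale were 6 (NUP93-KO) and 28 (EXOSC5-KO), those lower relative to the median gene 0 in NONT and 1 in EXOSC5-KO, and 0 were higher without drug in NUP93-KO. A minimum of 50 gave 12 members with a higher response in NUP93-KO than in NONT on the spike-in scale. The share of all genes called in that fit is not given, so the 12 cannot be set beside a background. With 1 library left out, that share ran from 0.00% to 50.7% for the same comparison. With no filter, 13 (NONT) and 16 (EXOSC5-KO) were higher relative to the median gene and 1 was higher without drug in NUP93-KO, and the median member stood 0.179, 0.590 and 0.328 above the median gene in NONT, NUP93-KO and EXOSC5-KO. A pseudocount of 5 gave 0.370 in NONT and moved CTSH in NUP93-KO to 0.0045.

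Gene by gene, same-numbered libraries did not deviate together (correlations from -0.051 to 0.037). A shift common to all genes of a library does not enter these correlations, so a pairing of that kind was not tested. With the replicate block, 0 members were higher without drug in NUP93-KO, and no other count moved by more than 1.5 times.

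With each library left out in turn, members lower on the spike-in scale ranged from 1 to 3 (NUP93-KO) and 3 to 24 (EXOSC5-KO), and those higher without drug in EXOSC5-KO from 0 to 1. Members with a higher response than in NONT on that scale ranged from 0 to 29 in NUP93-KO and 0 to 22 in EXOSC5-KO. Relative to the median gene, the counts of members called also changed with the library left out, after triptolide and without drug. The share of all genes called in those fits is not given, so such counts have no background. The median member minus the median gene ranged from 0.722 to 0.902 after triptolide in NUP93-KO, 0.170 to 0.300 without drug in NUP93-KO, 0.0741 to 0.253 for the difference in response of NUP93-KO and -0.0730 to 0.0676 for that of EXOSC5-KO. CTSZ in NONT ranged from -0.129 to 0.744. CTSH ranged from -1.38 to 1.24 in NUP93-KO and from -2.11 to 0.504 in its difference from NONT, and CTSF from -0.0312 to 2.82 and from -0.000884 to 2.85 in the differences of NUP93-KO and EXOSC5-KO.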
